A study of Mus musculus with 5 samples.

Results

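The mRNA levels of 8 genes that build, remodel or take up plasma lipoproteins were examined in mouse liver: Mttp, Pltp, Lcat, Lipc, Lpl, Vldlr, Scarb1 and Abca1. They were taken by name, through every probe whose symbol or older synonym on the array platform was one of the 8. This gave 9 of 29922 probes and 8 of 16637 named genes, with 2 probes for Lpl and 1 for each of the other genes. The study asked how nordihydroguaiaretic acid (NDGA), a plant lignan that inhibits lipoxygenases, acts on hepatic lipid metabolism in obese mice. RNA from whole liver was labelled with Cy5 and read in 1 colour on 5 Phalanx Mouse OneArray slides, 1 slide for each of 5 groups.

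Of the C57BL/6 wild-type (WT) mice, one group was fed chow, another a high-fat diet, and another the high-fat diet containing NDGA. The other groups were ob/ob mice, which lack functional leptin in the whole body, on chow or on chow containing NDGA. NDGA was given at 2.5 g per kg of food and every diet lasted 16 weeks; the labels used here give no sex or age. RNA came from 3 animals per group, and the labels do not say whether it was pooled before hybridisation. With 1 array per group there is no spread between animals, so no test was possible and each difference below is one between 2 arrays. No group of lean mice on NDGA is among the arrays.

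Triglyceride leaves the liver in very low density lipoprotein (VLDL), which is assembled in the endoplasmic reticulum by loading lipid onto apolipoprotein B. In the circulation, lipases remove its triglyceride, transfer proteins move phospholipid and cholesterol between particles, and receptors on cells bind what remains. High density lipoprotein (HDL) forms from cholesterol and phospholipid exported by ABC transporters, matures as its cholesterol is esterified, and returns cholesterol to the liver. Several of these genes are targets of the nuclear receptors LXR, FXR or the PPARs.

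Among the 8 genes, Pltp, Vldlr and Lpl differed most between arrays and did so in different ways. Pltp, which codes for the phospholipid transfer protein, was 2.16-fold lower on the WT high-fat diet array than on the WT chow array, and 2.08-fold lower on the ob/ob chow array than on the WT chow array. On the arrays with NDGA it was 2.15-fold higher than on high-fat diet alone in WT and 2.07-fold higher than on chow alone in ob/ob. Vldlr, the VLDL receptor, was 2.21-fold higher on both obese arrays without NDGA than on WT chow, and it was highest on the 2 NDGA arrays. These folds are on the scale of quantile normalized log2(intensity + 50), which understates the differences of dim genes.

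The promoters of Pltp and Vldlr are shown because these were the genes at least 2-fold apart in both obesity comparisons. Of the 8 genes, 6 matched the RefSeq promoter table of assembly GRCm38.p6, with 8 windows in all; Lpl and Scarb1 did not. Each sequence below is the 250 bases before an annotated start, 5′ to 3′ on the gene's own strand. Capitals in the Pltp sequence mark a CCAAT box and a GC box, both read on the opposite strand; the Vldlr sequence, before the first of its 2 starts, has no capitals because none of the motifs searched was found in it. The window of the second Vldlr start holds a CCAAT box 78 bases and a GC box 42 bases before it, both on the opposite strand, and the 250 bases before that start are 66.4% G and C.
Pltp, chr2:164857709-164857958, minus strand: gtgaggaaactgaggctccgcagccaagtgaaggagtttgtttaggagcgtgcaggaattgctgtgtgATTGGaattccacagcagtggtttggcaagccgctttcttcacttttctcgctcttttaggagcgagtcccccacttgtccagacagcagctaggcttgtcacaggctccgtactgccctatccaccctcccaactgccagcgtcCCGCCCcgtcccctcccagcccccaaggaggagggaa
Vldlr, chr19:27216234-27216483, plus strand: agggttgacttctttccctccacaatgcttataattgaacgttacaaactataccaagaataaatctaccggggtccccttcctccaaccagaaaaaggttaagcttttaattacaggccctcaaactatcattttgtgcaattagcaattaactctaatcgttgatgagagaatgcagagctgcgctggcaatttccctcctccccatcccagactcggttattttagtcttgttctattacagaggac

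The 7 motifs, searched on both strands of 300-base windows running from 250 bases before the start to 50 after it, were the nuclear receptor half-site AGGTCA, its direct repeats with a gap of 1 base (DR1) or 4 bases (DR4), the TATA box TATAAA, the CCAAT box CCAAT, the E-box CACGTG and the GC box GGGCGG. A half-site lies inside each direct repeat, and the other motifs do not overlap by their letters. In the Pltp window the CCAAT box began 182 bases before the start and the GC box 37 bases before it, and TATAAA began at base 36 from it. Of all 32851 windows in the table, 37.4% held a CCAAT box, 35.7% a GC box and 13.6% TATAAA; of the 8 windows of these genes, 5, 5 and 2 did. The half-site was in 16.3% of all windows and in 1 of the 8 windows of these genes, the second of Lipc. The direct repeats were searched as exact copies of AGGTCA only. DR1, the type of element bound by PPARs, was in 0.0396% of all windows, and DR4, the type bound by LXR, in 0.0152%. Neither was in a window of these genes. With shares this low no match was likely in 8 windows, so the absence does not show that these genes lack such elements. The E-box was in 7.15% of all windows and in 1 of these 8, that of Abca1. The Pltp sequence printed above is 57.6% G and C and the Vldlr sequence 41.6%.

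The arrays differed in brightness. The deposited median intensity lay between 38.1 and 47.0 on 4 arrays and at 71.0 on the ob/ob NDGA array, 1.83 times the WT chow median. Values were therefore quantile normalized over the 5 arrays. The deposited intensity of Lep, the gene mutated in ob/ob mice, was 5.76 to 15.8 on all 5 arrays, so the gene checks no label in liver. Of 12 hepatocyte markers, 9 were named on the array, and their summed normalized intensity was 191357 to 214336. Alb and Ahsg were each saturated on 4 arrays and make up most of that sum. The 7 markers without them summed to 83121 to 85950.1 on 4 arrays and to 60626 on ob/ob chow. Cyp2e1 and Hpd make up most of this smaller sum, and single markers were less level. Over the 5 arrays Fgb ran from 2581 to 6811 and Cps1 from 1858 to 6215. Of the 8 genes, none was saturated on any array. For genes with 2 expressed probes, the spread of the log2 difference between the probes was 0.28 to 0.48 (SD per probe, 646 to 658 genes), which measures the probes and not the animals.

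The median gene had a normalized intensity of 89.1 to 94.2 on the 5 arrays. Genes whose mean over the 2 arrays compared reached the median of all genes are called expressed, and 8319 genes did so in each comparison. Of the 8 genes, 6 were above the median gene on all 5 arrays, and Lipc and Abca1 were below it on all 5.

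**Figure D1:**
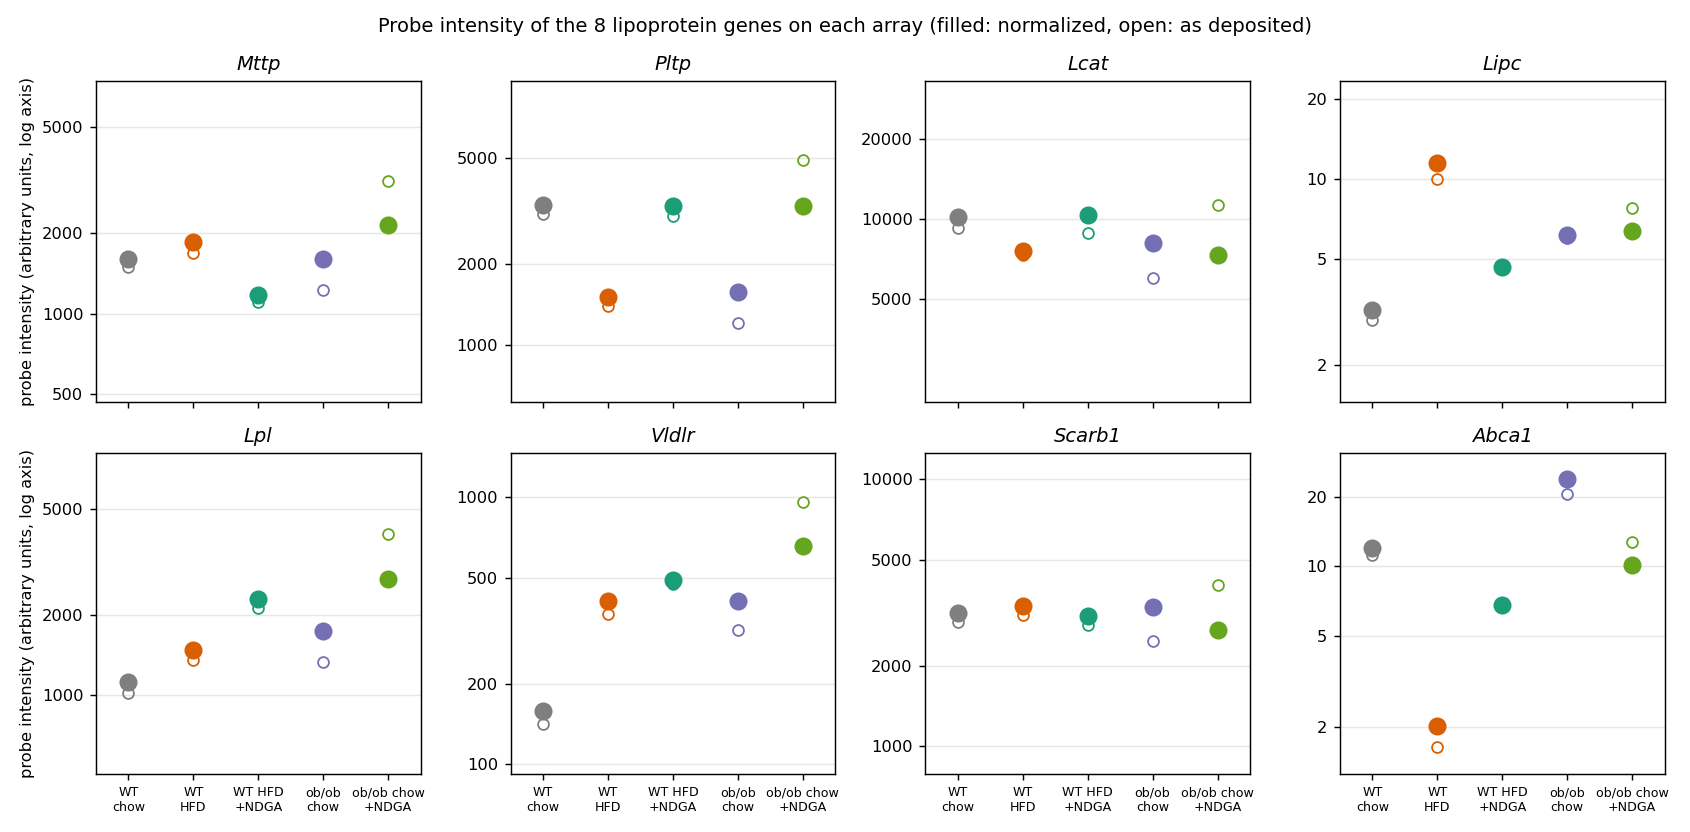
Intensity of the 8 genes on each of the 5 arrays, on log axes with 1 panel per gene. Filled points are quantile normalized values and open points are deposited values; 1 array per group, so no error bars. Pltp is lower on the WT high-fat diet and ob/ob chow arrays than on the other 3 in normalized values, while Vldlr and Lpl are lowest on WT chow, and Lipc and Abca1 stay close to background.

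In assembly, Mttp codes for the microsomal triglyceride transfer protein, which loads lipid onto apolipoprotein B. Its normalized intensity was 1610.3 on WT chow, 1853 on WT high-fat diet, 1171 on WT high-fat diet with NDGA, 1604 on ob/ob chow and 2157 on the ob/ob NDGA array. The lowest and the highest array were therefore the 2 with NDGA. In WT mice on the high-fat diet it was lower with NDGA by a log2 difference of -0.64, and in ob/ob mice it was higher with NDGA by 0.42. Neither reached 2-fold, and 14.05% and 46.8% of expressed genes were at least as far apart in those comparisons. Between the obese arrays without NDGA and WT chow, the log2 difference of Mttp was 0.20 on the high-fat diet and -0.01 in ob/ob. Without normalization the ob/ob difference with NDGA was 1.32, since the deposited value was 3132 on the brighter ob/ob NDGA array and 1227 on ob/ob chow.

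Of the remodelling enzymes and transfer proteins, Pltp showed a split into 2 levels. Its product transfers phospholipid from triglyceride-rich particles to HDL. Its normalized intensity was 3330.2 on WT chow, 1513 on WT high-fat diet, 3305 on WT high-fat diet with NDGA, 1572 on ob/ob chow and 3313 on the ob/ob NDGA array. The WT chow array and the 2 NDGA arrays lay at one level, and the obese arrays without NDGA lay well below it.

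The log2 difference of Pltp was -1.11 for the high-fat diet, with -1.13 to -1.11 over the settings tried, and 2.38% of expressed genes were at least as far apart. For NDGA on the high-fat diet it was 1.10, with 0.99 under median centring, and 1.72% of genes were as far apart. In ob/ob mice on chow it was -1.06, and 2.50% of genes were as far apart. For NDGA in ob/ob it was 1.05, or 1.99 without normalization, and 6.24% of genes were as far apart.

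The deposited values of Pltp were 3082, 1394, 3047, 1201.5 and 4927 in the same order of groups, so the ob/ob NDGA array was the brightest before normalization. To remove the brightness of whole arrays, the log2 difference of Pltp was also set against the mean log2 difference of Mttp, Lcat and Scarb1 on the deposited values, a choice made after the values were seen. Relative to these 3 genes Pltp differed by -1.09 and -0.95 for the high-fat diet and for ob/ob, and by 1.25 and 1.02 for NDGA in WT and in ob/ob mice. The 3 genes were not level themselves. With NDGA on the high-fat diet, Mttp differed by -0.58, Lcat by 0.27 and Scarb1 by -0.12 in deposited values. With NDGA in ob/ob these were 1.32, 0.90 and 0.69, so part of each relative difference is theirs. The 2 obesity comparisons share the WT chow array, and each NDGA comparison shares an array with one of them, so the pattern of Pltp does not come from 4 independent differences.

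Lcat codes for lecithin-cholesterol acyltransferase, which esterifies cholesterol on HDL. Its normalized intensities were 10158 on WT chow, 7590.3 on WT high-fat diet, 10368.5 on WT high-fat diet with NDGA, 8116 on ob/ob chow and 7311.5 on the ob/ob NDGA array. The deposited values were 9250.4, 7337, 8827.5, 6016 and 11237. The normalized levels spanned 0.50 on the log2 scale, below the median span of 0.61 for expressed genes. Its log2 difference was -0.42 for the high-fat diet, 0.45 for NDGA on it, -0.32 for ob/ob and -0.15 for NDGA in ob/ob. The last of these was 0.90 without normalization, 0.44 with median centring and 0.05 with loess, so its direction depends on the scaling.

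Of the lipases, Lpl codes for lipoprotein lipase, the enzyme that releases fatty acids from circulating triglyceride and is made mainly outside the adult liver. Its brighter probe had normalized intensities of 1127 on WT chow, 1477 on WT high-fat diet, 2291 on WT high-fat diet with NDGA, 1741 on ob/ob chow and 2731 on the ob/ob NDGA array. The order ran from WT chow at the bottom to ob/ob with NDGA at the top, and both NDGA arrays lay above both obese arrays without it. The log2 differences were 0.38 for the high-fat diet, 0.62 for NDGA on it, 0.61 for ob/ob and 0.63 for NDGA in ob/ob, none of them 2-fold. In the same comparisons 36.5%, 15.5%, 7.18% and 23.85% of expressed genes were at least as far apart. The last difference was 1.57 without normalization and 1.11 with median centring. Relative to Mttp, Lcat and Scarb1 on the deposited values, Lpl was higher by 0.41, 0.78, 0.74 and 0.60. The 0.78 includes the lower Mttp in that comparison, -0.58 in deposited values. The second Lpl probe lay near background, at normalized intensities of 4.09 to 6.53, and could not check the first.

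Lipc codes for hepatic lipase, a product of hepatocytes. Its probe had normalized intensities of 3.24, 11.4, 4.69, 6.18 and 6.396 on WT chow, WT high-fat diet, WT high-fat diet with NDGA, ob/ob chow and ob/ob chow with NDGA. Values this close to background give no order of the arrays, and they say nothing of how much of the transcript the liver held. Abca1, the transporter that exports cholesterol and phospholipid to apolipoprotein A-I, was as dim, at 12.0, 2.03, 6.76, 23.9 and 10.1 in the same order. Neither gene was counted in any comparison.

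Of the receptors, Vldlr binds triglyceride-rich particles and, like Lpl, is most abundant outside the normal liver. Its normalized intensity was 157 on WT chow, 409 on WT high-fat diet, 489 on WT high-fat diet with NDGA, 409 on ob/ob chow and 655 on the ob/ob NDGA array. WT chow stood apart as the lowest array, the 2 obese arrays without NDGA were level, and the 2 NDGA arrays were the highest. The highest was 4.16 times the lowest. The deposited values were 141, 365, 471, 318 and 956 in the same order of groups. Its range of 1.76 on the log2 scale was wider than that of 97.25% of expressed genes, against 90.8% for Lpl and 87.2% for Pltp.

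The log2 difference of Vldlr was 1.15 for the high-fat diet and 1.15 for ob/ob, and 2.18% of expressed genes were at least as far apart in either comparison. For ob/ob it was 0.94 without normalization and 0.96 with median centring, just short of 2-fold. With NDGA it was 0.23 higher in WT mice on the high-fat diet and 0.62 higher in ob/ob mice, where 61.9% and 24.95% of genes were as far apart. Without normalization these were 0.33 and 1.45. Relative to Mttp, Lcat and Scarb1 on the deposited values, Vldlr was higher by 1.14, 0.47, 1.32 and 0.48 in the order high-fat diet, NDGA on it, ob/ob and NDGA in ob/ob. The 0.47 includes the lower Mttp in that comparison, -0.58 in deposited values.

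Vldlr and Lpl had the same normalized order of arrays, ob/ob with NDGA, WT high-fat diet with NDGA, ob/ob chow, WT high-fat diet and WT chow; the deposited values exchange the third and the fourth. No spread between animals is known, so which neighbours in these orders differ cannot be said. Scarb1, the HDL receptor that takes up cholesteryl ester in liver, had the narrowest range of the 6 expressed genes, 0.30 on the log2 scale. Its normalized intensities were 3159, 3351, 3078, 3320.0 and 2712 on WT chow, WT high-fat diet, WT high-fat diet with NDGA, ob/ob chow and ob/ob chow with NDGA. The deposited values were 2919.7, 3096, 2849, 2471.5 and 4013. Its log2 difference for ob/ob was 0.07, but -0.24 without normalization, -0.22 with median centring and -0.02 with loess. For NDGA in ob/ob it was -0.29, but 0.69 without normalization and 0.23 with median centring.

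**Figure D2:**
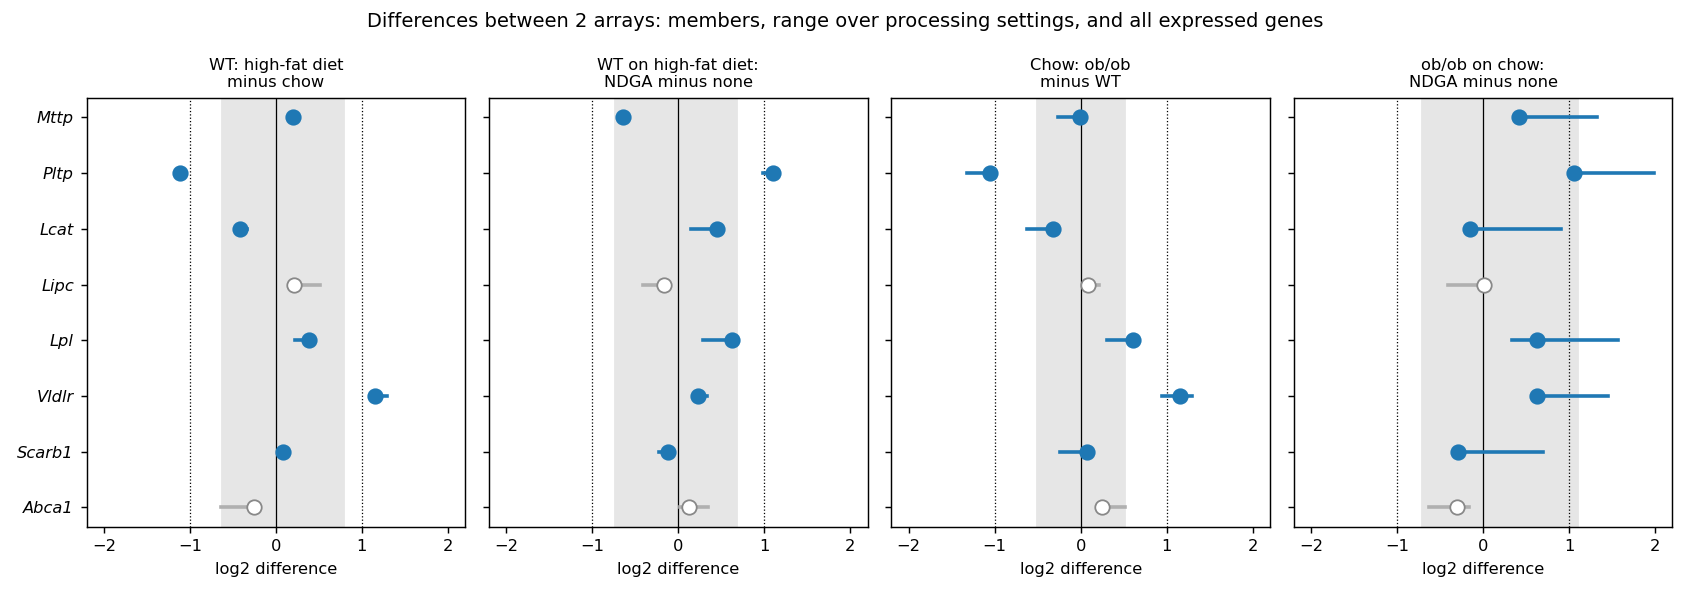
Log2 difference of the 8 genes in each of the 4 comparisons, 1 panel per comparison. Points are quantile normalized values, horizontal bars span the values over all settings tried, the grey band runs from the 5th to the 95th percentile of expressed genes, dotted lines mark 2-fold, and open points are genes below the median. Pltp lies beyond the dotted line in all 4, Vldlr in the high-fat diet and ob/ob comparisons.

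Read together, 2 of the 6 expressed genes were at least 2-fold apart for the high-fat diet, Vldlr higher and Pltp lower. Over all 8319 expressed genes, 2.13% were higher and 1.33% lower. For NDGA on the high-fat diet in WT mice, 1 of 6 was higher, Pltp, and none lower, against 0.902% higher and 1.56% lower of all. With deposited values the split of all genes there was 92 higher and 92 lower, in place of 75 and 130. For ob/ob on chow, Vldlr was higher and Pltp lower, against 1.03% and 1.79%; without normalization the all-gene split was 47 and 202 in place of 86 and 149. For NDGA in ob/ob, 1 of 6 was higher, Pltp, and none lower, against 6.74% and 0.505% of all.

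The medians over the 6 expressed genes were 0.14, 0.34, 0.03 and 0.52 in these 4 comparisons, beside -0.01, -0.03, 0.04 and -0.09 over all expressed genes. In the last, quantile normalization sets the level of the array: without it the median of all expressed genes was 0.68. With deposited values, 4 of the 6 genes were then at least 2-fold higher with NDGA in ob/ob, Mttp, Pltp, Lpl and Vldlr, as were 32.4% of all expressed genes.

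The other genes of the pathway were examined in the same way. Of 95 genes on 7 lists, for VLDL assembly, apolipoproteins, lipases and transfer proteins, receptors, cholesterol efflux, LXR targets and transcription factors, 86 were named on the array and 65 to 67 were expressed. For the high-fat diet, 1 of 67 was at least 2-fold higher and none lower, beside 2.13% and 1.33% of all genes, with a median of 0.02. It was Apoa4, an apolipoprotein of chylomicrons and VLDL, with normalized intensities of 18800 on WT chow, 63459 on WT high-fat diet and 12929 on WT high-fat diet with NDGA.

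The Apoa4 probe was saturated on the WT high-fat diet array and on the ob/ob NDGA array. On the high-fat diet the difference from chow is therefore at least 3.37-fold and the difference from NDGA at least 4.89-fold. Apoa4 was also the only one of 67 apart with NDGA on the high-fat diet, where 0.902% of all genes were higher and 1.56% lower and the median of the 67 was -0.17. In ob/ob on chow 2 of 65 were higher and 1 lower, beside 1.03% and 1.79% of all genes: Apoa4 and Pparg, a nuclear receptor of lipid storage, were higher with log2 differences of 1.77 and 1.22, and Apom, an HDL apolipoprotein that carries sphingosine-1-phosphate, was lower by a log2 difference of -1.22. The Pparg difference was 0.97 without normalization and 0.98 with median centring, just short of 2-fold, and under both Angptl4 was lower by at least 2-fold. With NDGA in ob/ob 7 of 66 were higher and none lower, a share of 10.6% beside 6.74% of all genes. Leaving out saturated probes made Apoa4 the eighth, through another probe.

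These 7 were Mia2, which exports large cargo from the endoplasmic reticulum, with a log2 difference of 1.39; Apoc3, an inhibitor of lipoprotein lipase, with 1.27; Atp5b, an ATP synthase subunit, and Nr1h3, which codes for LXR-alpha, each with 1.12; Npc1, which moves cholesterol out of lysosomes, with 1.11; Smpdl3a, an LXR-regulated phosphodiesterase, with 1.10; and Pcsk6, a proprotein convertase, with 1.07. Averaging all probes of a gene gave 1.04 for Mia2 and 0.59 for Npc1. LXR targets other than Pltp, Lpl and Abca1 had medians of 0.45 for the high-fat diet, -0.42 for NDGA on it, 0.16 for ob/ob and 0.60 for NDGA in ob/ob, over 6, 7, 6 and 7 expressed genes. Without normalization the ob/ob median was -0.02 and the last was 1.57. Pltp had the opposite sign to that median for the high-fat diet and for NDGA on it, and the same sign for NDGA in ob/ob.

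Nr1h3 had normalized intensities of 341 on WT chow, 447 on WT high-fat diet, 262 on WT high-fat diet with NDGA, 261 on ob/ob chow and 625 on the ob/ob NDGA array. Its level was thus lower with NDGA in WT and higher with it in ob/ob. Angptl4, which inhibits lipoprotein lipase, differed by -0.22, 0.19, -0.75 and 0.89 on the log2 scale in the 4 comparisons, and Apob, the protein of VLDL, by -0.35, 0.18, 0.18 and -0.64. With NDGA in ob/ob, Apob was 0.17 without normalization, so its direction there depends on the scaling, and with median centring the NDGA differences on the high-fat diet were -0.11 for Apob and -0.06 for Angptl4. Ppara, the receptor named in the study's title, differed by 0.30, -0.32, -0.22 and 0.14. Pparg was 496 on WT chow, 720.0 on WT high-fat diet, 717.5 on WT high-fat diet with NDGA, 1219.5 on ob/ob chow and 925 on the ob/ob NDGA array. Its deposited values were 447.8, 650.1, 688.8, 926.9 and 1352 in the same order, so which of the ob/ob arrays was higher depends on the scaling. The probe of Srebf1, a lipogenic transcription factor, was near background at 3.44 to 12.8.

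**Figure D3:**
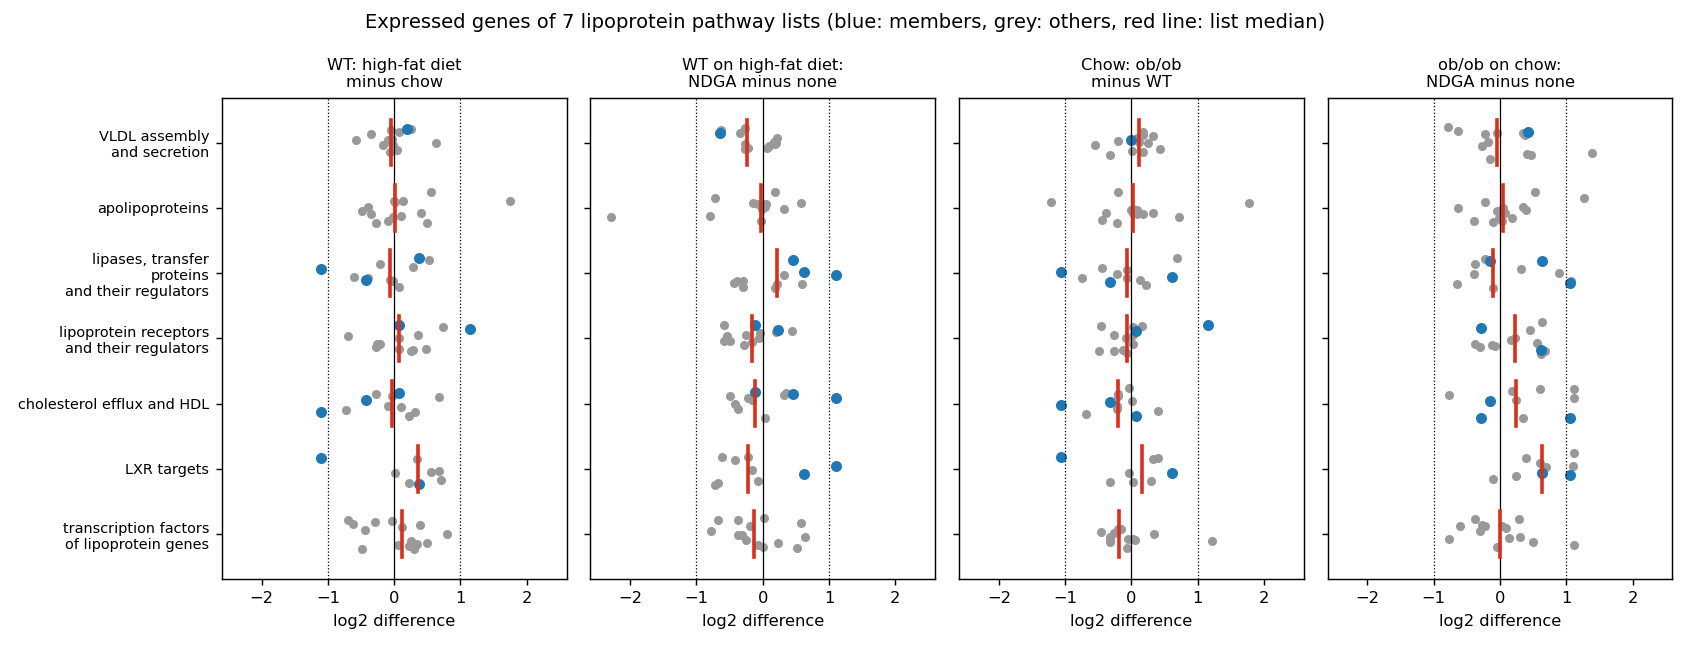
Log2 difference of every expressed gene of the 7 pathway lists, 1 panel per comparison and 1 row per list. Blue points are the genes described here, grey points are the other genes, red bars are list medians and dotted lines mark 2-fold. Apoa4 at -2.29 with NDGA on the high-fat diet is the widest difference plotted, with the probe saturated on the high-fat diet array.

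Cells other than hepatocytes also express these genes: muscle, fat and macrophages express Lpl, and muscle and fat express Vldlr. In bulk tissue, fewer cells of a type and less RNA per cell cannot be told apart. All 20 skeletal muscle markers were named. Their summed normalized intensity was 4398 on WT chow, 3446 on WT high-fat diet, 14184 on WT high-fat diet with NDGA, 4711 on ob/ob chow and 5113 on the ob/ob NDGA array. Of the 20, 12, 12, 3, 11 and 7 were below an intensity of 50. Ckm, the muscle creatine kinase, showed the largest difference with NDGA and was chosen after its values were seen; it was at 13.4 to 13.6 on the 3 arrays without NDGA, 1589 on WT high-fat diet with NDGA and 223 on ob/ob with NDGA.

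With NDGA on the high-fat diet, 19 of the 20 were higher and 1, Tnnt3, a fast troponin, was lower with a log2 difference of -0.76. With NDGA in ob/ob, 14 were higher and 6 lower. Among the lower were Ttn, the giant sarcomere protein titin, at 380 against 779.0 and Myh1, a fast myosin, at 338 against 568. Their log2 differences were -0.95 and -0.67 on the brightest probe, but -0.20 and 0.03 averaged over all probes of the gene. Without normalization 19 of the 20 were higher and 1 lower with NDGA in ob/ob. In that setting the median of all expressed genes was 0.68, and all 15 macrophage and all 10 endothelial markers were higher too. With normalization the medians over expressed muscle markers were 1.64 for NDGA on the high-fat diet and 0.27 for NDGA in ob/ob. Over all expressed genes these medians were -0.03 and -0.09. The muscle sum was highest on the WT NDGA array, and Lpl and Vldlr on the ob/ob NDGA array. Their part in the levels of Lpl and Vldlr was not tested.

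Adipocyte markers, 6 of 8 named, summed to 1361, 1628, 4448, 1005 and 874 in the same order of groups. Of the WT NDGA sum, 3181 was Cfd, which codes for adipsin, while Adipoq lay between 24.99 and 63.2, Plin1 between 13.2 and 17.7 and Fabp4 between 2.09 and 7.90 on all 5 arrays. Macrophage markers, 15 of 15 named, summed to 7751, 12162, 6465.5, 15669 and 14181, and in deposited values to 7074, 11077, 6196, 11729 and 20816. The sums were thus higher on the obese arrays without NDGA than on WT chow, as were Vldlr and Lpl. With NDGA on the high-fat diet the macrophage sum was lower, while Vldlr and Lpl were higher. The lowest array depends on the summary. The sum was lowest on the WT NDGA array, while the median macrophage marker was lowest on WT chow. That median was 259.8 on WT chow and 278.9 on the WT NDGA array. Vldlr and Lpl were lowest on WT chow. Stellate cell and fibroblast markers, 10 of 10, summed to 6745.6, 12909, 9009, 11176 and 13289, lowest on WT chow as Vldlr and Lpl were. With NDGA on the high-fat diet this sum was lower, while Vldlr and Lpl were higher. Dcn, at 4069 to 7201, was the largest part of each stellate sum. Endothelial markers, 10 of 10, summed to 20547 to 27809.7. Clec4g, at 14654 to 21253, makes up most of each sum. With NDGA on the high-fat diet all 10 endothelial markers were lower, with a median log2 difference of -0.51 over 8 expressed. All 15 macrophage markers were lower there, with a median of -0.88. Of the stellate markers 8 were lower and 2 higher, with a median of -0.74. For the high-fat diet 8 endothelial markers were higher and 2 lower, with a median of 0.29 over 7 expressed. The macrophage and stellate medians there were 0.78 and 1.04. Over all expressed genes the medians were -0.03 for NDGA on the high-fat diet and -0.01 for the high-fat diet. The part of these cells in the 8 genes was not tested.

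**Figure D4:**
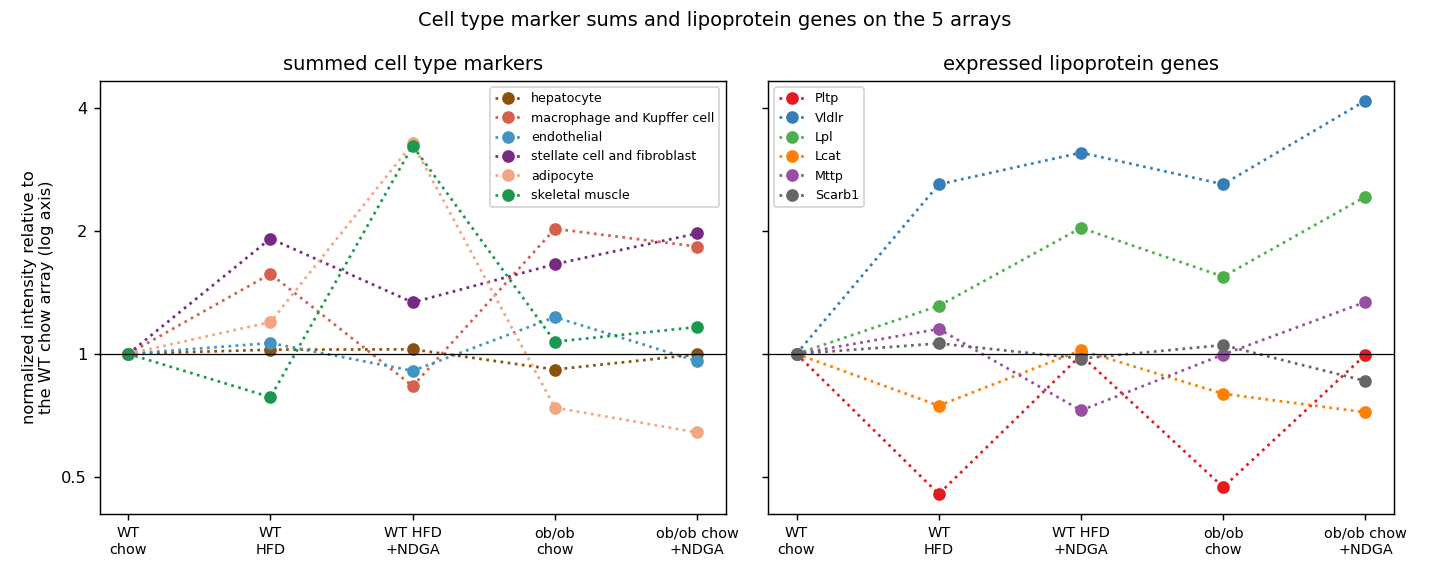
Marker sums of 6 cell types (left) and levels of the 6 expressed genes (right), each divided by its value on the WT chow array, over the 5 arrays on log axes. Dotted lines join the points of one list or gene. The muscle sum is 3.23 times WT chow on the WT high-fat diet NDGA array, the adipocyte sum 3.27 times, and Vldlr is highest on the ob/ob NDGA array.

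Likeness to each of the 3 genes with the widest range was measured as the root mean square difference between 2 genes' log2 levels over the 5 arrays, after removing each gene's own mean. For Vldlr the nearest were Il1a, which codes for an interleukin, at 0.155, Treh, the trehalase, at 0.158 and Hk2, a hexokinase, at 0.169. For Lpl they were Sulf2, a heparan sulphate sulphatase, at 0.147, Rfx6, a transcription factor of pancreatic islets, at 0.156 and Acot6, an acyl-CoA thioesterase, at 0.172. For Pltp they were Ndufv2, a subunit of respiratory complex I, at 0.304, Pdzk1ip1 at 0.308 and Cyp27a1, the sterol 27-hydroxylase, at 0.322.

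These genes were picked for their likeness over 5 arrays out of 8319 expressed genes, so the closeness itself is no finding. Treh had normalized intensities of 322 on WT chow, 715 on WT high-fat diet, 745 on WT high-fat diet with NDGA, 888 on ob/ob chow and 1259 on the ob/ob NDGA array, and Cyp27a1 had 9509, 6782, 9466, 5661 and 7565. Cyp27a1 was thus lower on both obese arrays without NDGA and higher with NDGA, as Pltp was, over a smaller range.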

How the data were processed

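The authors deposited 1 column of linear probe intensities per array, per the labels' protocols from total liver RNA labelled with Cy5 by amino-allyl coupling; the linear scale was judged from the values. The labels name no scanner, background correction or scaling (not given in the sources used here). Of 29922 probes, 21020 carried a symbol and 8902 did not; of the symbols, 17558 were current in RefSeq GRCm38.p6, 3410 were updated from an unambiguous older name and 52 stayed as given. Values were quantile normalized over the 5 arrays and taken as log2(value + 50), an offset chosen after the values were first seen. A floor set on value + 50 was not reached by any value. Where a gene had several probes, the one brightest on average was used. A gene counted as expressed at or above the median of the 2-array means, and as apart at a log2 difference of 1. With 1 array per group no test was run. The 8 genes, the gene lists and the methods were chosen with earlier results of these data known.

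Genes named are the 8, up to 4 per list and comparison that were at least 2-fold apart, a few further pathway genes by name, 1 of which is not reported here, and the 3 genes most alike to each of the 3 genes with the widest range. Alternatives were the deposited values, median centring, loess (span 0.3), an offset of 16, averaging a gene's probes, no filter on brightness or one at the 75th percentile, leaving out saturated probes (at or above 65000), and, added after the data were seen, quantile normalization of the 2 arrays alone. The steps were tested on simulated data. Python 3.11.15, pandas 2.3.3, numpy 2.4.6, statsmodels 0.14.6 and matplotlib 3.10.9 were used. The array number, not depth, limits precision.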

Additional observations from a re-analysis of the deposited data

Results flagged for a closer look

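The NDGA difference of Mttp had opposite signs in the 2 kinds of mice: the log2 difference was -0.64 in WT mice on the high-fat diet and 0.42 in ob/ob mice on chow, so ob/ob minus WT was 1.06. The signs were also opposite without normalization, at -0.58 and 1.32. In that setting the median of all expressed genes was 0.68 in the ob/ob comparison. Most genes thus had a positive sign there on the brighter array, so the second setting is no separate check of the sign. In the WT and the ob/ob comparison, 14.05% and 46.8% of expressed genes were at least as far apart as Mttp. The share of all genes with opposite signs was not computed, so how ordinary such a reversal is cannot be said. The WT mice ate the high-fat diet and the ob/ob mice chow, so diet and genotype cannot be told apart here. With 1 array per group the difference was not tested.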

How the results depend on the processing

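No paired analysis was possible because each group had 1 array. The 4 comparisons are the high-fat diet, NDGA on it, ob/ob, and NDGA in ob/ob, and the counts below are genes at least 2-fold apart. Of the 8 genes, 2, 1, 2 and 1 were apart in the main analysis. A filter at the 75th percentile left 1 for the high-fat diet and 1 for ob/ob; median centring left 0 for NDGA on the high-fat diet, where Pltp was 0.99, and 1 for ob/ob; deposited values left 1 for ob/ob. For NDGA in ob/ob, deposited values gave 4 and median centring 2. Over all genes, the filter gave 132 for NDGA on the high-fat diet and 345 for NDGA in ob/ob; for the latter, deposited values gave 2703 and median centring 1248, in place of 603. Of other listed genes, an offset of 16 gave 2 for the high-fat diet, median centring 2 for NDGA on it, and for NDGA in ob/ob deposited values 28 and median centring 15. Loess, the mean of all probes, no filter, leaving out saturated probes and quantile normalization of 2 arrays kept all 12 counts within 1.5 times. No difference of at least 2-fold among the 8 genes changed sign under any alternative tried. The direction of Lcat, Scarb1 and Lipc with NDGA in ob/ob, and of Scarb1 in ob/ob, depended on the scaling; Lipc was below the median gene. Apob and Pparg with NDGA in ob/ob, the LXR target median in ob/ob, and Apob and Angptl4 with NDGA on the high-fat diet also changed sign with the scaling.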
